A study of Xenopus tropicalis with 20 samples.

Results

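The 6 enzymes of the urea cycle and its entry step were followed at the mRNA level in the liver of Xenopus tropicalis, the western clawed frog. They are nags, cps1, otc, ass1, asl and arg1, chosen by gene name from the 20372 named genes of the deposited tables. All 6 were found, and all 120 of their values (6 genes in 20 libraries) were marked sound by the authors' quantification. They were chosen by pathway, not by a measured value, although earlier results of these data were known. The study asked whether the livers of daughters and granddaughters differ when the founder frogs had been kept with a chemical mixture.

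The founder frogs (F0) of the mixture groups were kept with benzo[a]pyrene, a polycyclic aromatic hydrocarbon, together with triclosan, an antimicrobial agent, at 50 ng/L from the tadpole stage to mature adulthood. The labels do not say whether that was the dose of each compound or of both. The sampled frogs were mature females of the next generations that had not been exposed themselves. There were 5 liver libraries in each of 4 groups. F1 mixture and F1 control females were the offspring of founders kept with or without the mixture, and F2 mixture and F2 control females were the generation after them. Each library was made from RNA of 15 mg of liver. The labels do not tie the libraries to clutches, so p-values measure the spread between these samples, part of which may be technical. The series' design text says that the control reads came from an earlier series, so a difference in when libraries were made or sequenced cannot be told apart from the founders' treatment.

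The urea cycle turns ammonia and the amino group of aspartate into urea. Its first steps run in the mitochondria of hepatocytes: nags makes N-acetylglutamate, the obligate activator of cps1, cps1 makes carbamoyl phosphate from ammonia and bicarbonate, and otc joins carbamoyl phosphate to ornithine to give citrulline. The later steps run in the cytosol: ass1 joins citrulline to aspartate, asl splits the product into arginine and fumarate, and arg1 releases urea and returns ornithine. In frogs the cycle is known for its rise at metamorphosis, when the tadpole's excretion of ammonia gives way to excretion of urea.

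Levels are given as FPKM (fragments relative to the length of the transcript and the size of the library), divided by a scaling factor per library, here called scaled FPKM. The deposited FPKM limits corresponded to 7896246 to 16704801 fragments per library, and 8466 to 10637 genes had an FPKM of 1 or more. By this measure the F1 mixture group had a mean depth of 15338572 ± 1343977 (SD over 5 libraries), beside 10230909 ± 1540972 for F1 control. Sound values were found in every library for 16 of 17 hepatocyte marker genes, and all 16 had a mean FPKM of 1 or more in each group, which fits the liver label. Of 14 pancreas genes, cela1.1, cela1.5, cela1.6, ctrb1 and pnlip were listed at 0 in all 20 libraries, while the amylase gene amy2a ran from 15.9 to 1833 scaled FPKM and cel, a lipase gene, from 0.405 to 5.53. In the library F2 mixture 2 the hepatocyte markers had their lowest mean log2 level (7.82) and the erythrocyte markers their highest (7.53), and limma's array weights gave that library the lowest weight (0.288). For the 6 enzymes, results that rest on it are given with and without it. For the related genes and the cell type markers, values are given with it only.

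All 6 genes lie at the positions of the assembly UCB_Xtro_10.0, and none overlaps another annotated gene. The coordinates are chr10:18019106-18027387 for nags, chr9:56844485-56902762 for cps1, chr2:58042790-58073280 for otc, chr8:13039270-13098534 for ass1, chr2:97921937-97941193 for asl and chr5:69810183-69822876 for arg1. The reference table lists 3 transcripts for ass1 and 1 for each of the others. The half-width of the deposited FPKM interval, which does not cover the spread between animals, had a median of 1.10% of the value for cps1 and 6.56% for asl. The other 4 genes were in between. For ass1 it stayed between 4.17% and 4.64% while FPKM ran from 190 to 2748, so there it held more than counting error.

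The argininosuccinate synthetase gene ass1 had the highest level of the 6 in 20 of 20 libraries, with a median of 898 scaled FPKM and a range of 188 to 2449. It ranked 129th by mean FPKM among all named genes. The levels of cps1 (median 239.8, range 101 to 408), otc (218, 86.3 to 540) and arg1 (182, 31.3 to 776) overlapped widely. In the pair of cps1 and otc each was the higher in 10 of 20 libraries, cps1 was above arg1 in 12, and otc was above arg1 in 11, so these 3 neighbours have no settled order. The level of nags (median 95.9, range 4.76 to 446) was under that of cps1 in 18 libraries. The lowest level was that of asl in 16 of 20 libraries (median 38.8, range 11.6 to 117), while nags was lowest in 2 and arg1 in 2.

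**Figure D1:**
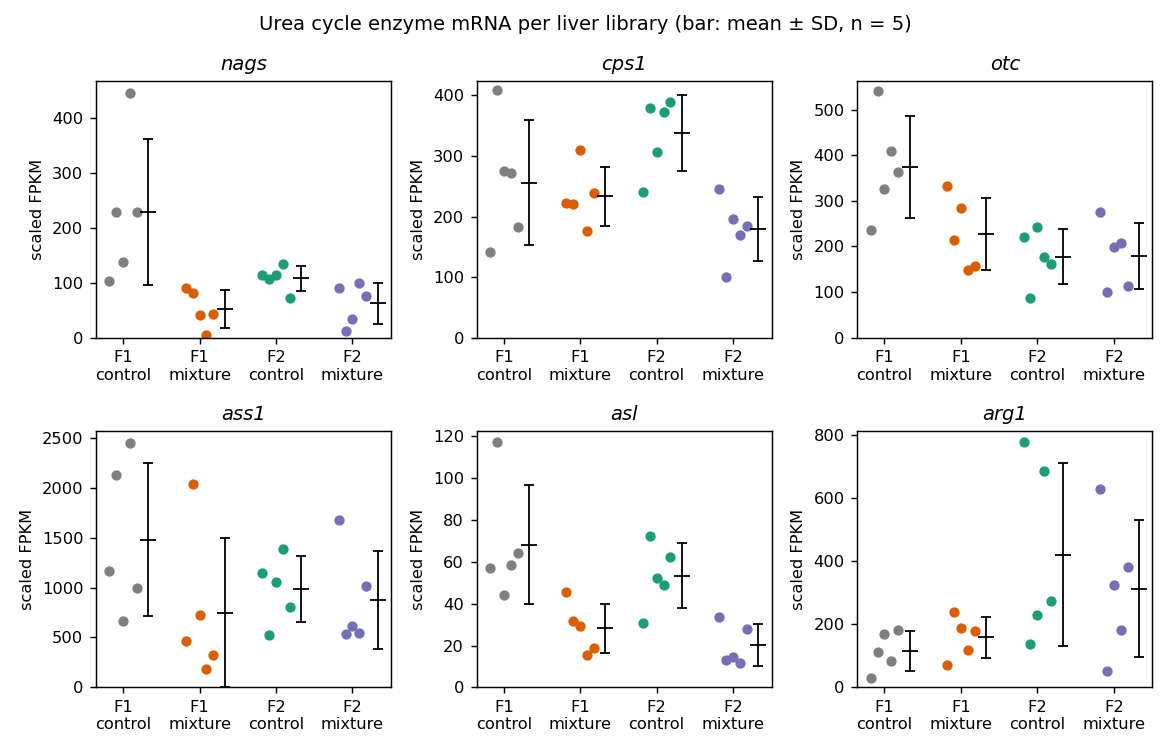
Level of each enzyme's mRNA in scaled FPKM (y axis, from 0, a scale of its own for each gene) in every liver library, by group (x axis). Points are single libraries and the bar beside them is the mean ± SD of 5 libraries. All 5 F1 mixture points of nags lie below all 5 F1 control points, and 4 of 5 F2 mixture points of asl and of cps1 lie below every F2 control point.

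The mixture comparison gave no call among the 6 enzymes in F1 and 2 calls in F2, both lower in the mixture group. In F1, limma called 0 of 6 at an adjusted p under 0.05, where it called 0% of all 10228 genes tested. At an unadjusted p under 0.05, 4 of the 6 were past the threshold, all of them lower in F1 mixture (nags, asl, ass1 and otc), beside 12.8% of all genes in either direction and 7.23% in the lower direction. In F2, asl and cps1 fell, where 25.7% of all genes were called, 11.3% higher and 14.5% lower. None of the 6 had F2 groups that stood fully apart, which 15.4% of all genes did. The median log2 fold change of the 6 enzymes was -1.001 in F1 and -0.73 in F2, while that of all genes was -0.02 and -0.04. In bulk liver, fewer cells of a type and less RNA per cell cannot be told apart. The test of the difference between the F2 and F1 effects called 0 of 6 (20.1% of all genes), and 1 of the 6, cps1, had an unadjusted p under 0.05, as did 35.1% of all genes.

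The first enzyme, nags, had its largest difference between groups in F1. Its level in the 5 F1 control libraries was 104, 228, 138, 446 and 229 scaled FPKM (libraries 1, 2, 3, 4 and 6). In the F1 mixture libraries it was 91.1, 82.3, 41.01, 4.76 and 43.7 (libraries 1, 4, 8, 9 and 13). Every F1 mixture library was below every F1 control library. Only nags among the 6 had groups that did not overlap in this comparison, which held for 1.59% of all genes and, in the lower direction, for 0.909%.

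The group means of nags were 229 ± 133 scaled FPKM (SD, n = 5) in F1 control and 52.6 ± 34.9 in F1 mixture. This was a log2 fold change of -2.40 ± 0.63 (SE), or 5.29-fold lower, with a 95% interval of -3.73 to -1.08. It had an unadjusted p of 0.00114 and an adjusted p of 0.185 by limma over 10228 genes, so it did not pass. Without the library F1 mixture 9, the lowest of its group, the log2 fold change was -1.72. In the authors' deposited table nags went from 323 FPKM in F1 control to 72.3 in F1 mixture (log2 fold change -2.16, q-value 0.00495) and was marked significant, as were 2.43% of the genes tested there.

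In F2 the levels of nags lay closer together. They were 115, 107, 114, 134 and 72.0 scaled FPKM in F2 control libraries 1 to 5 and 90.0, 12.6, 35.0, 101 and 75.6 in F2 mixture libraries 1 to 5. All 5 F2 mixture libraries were below the F2 control median of 114, but only libraries 2 and 3 were below the lowest control. In F2 nags had a log2 fold change of -1.07 ± 0.63 with an adjusted p of 0.224 by limma. It was -0.59 (adjusted p 0.482) without F2 mixture 2, so the size of the F2 difference rests on that library. The F2 effect minus the F1 effect was 1.33 ± 0.90 (limma, adjusted p 0.297).

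The level of cps1, the enzyme that commits ammonia to the cycle, fell in F2 mixture. It was 241, 379, 306, 373 and 389 scaled FPKM in F2 control libraries 1 to 5 and 246, 101, 197, 169 and 184 in F2 mixture libraries 1 to 5. Of the F2 mixture libraries 4 were below every control, and F2 mixture 1 was just above the lowest control. The means were 338 ± 63.2 and 179 ± 52.5 (SD, n = 5), a log2 fold change of -0.94 ± 0.28 (1.92-fold lower, 95% interval -1.53 to -0.35) with an adjusted p of 0.0194 by limma. Without F2 mixture 2 the fold change was -0.75 with an adjusted p of 0.0427. The authors' deposited table gave 373 and 211 FPKM with a q-value of 0.176 and did not mark cps1.

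In F1, cps1 had nearly the same mean in both groups. It ranged from 141 to 408 scaled FPKM in F1 control (mean 256 ± 103) and from 176 to 310.3 in F1 mixture (234 ± 48.8), with full overlap. The log2 fold change was -0.06 ± 0.28 (95% interval -0.65 to 0.53). The difference between the F2 and F1 effects was -0.88 ± 0.40, with an unadjusted p of 0.0392 and an adjusted p of 0.121 by limma, so a different response in F2 was not shown. With the mean of the erythrocyte markers as a covariate this difference was -1.16 with an adjusted p of 0.0478 by limma. In that setting 1389 of 10228 genes were called for the difference.

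The ornithine transcarbamylase gene otc was lower in F2 control than in F1 control. Its level was 236, 540, 325, 409 and 363 scaled FPKM in F1 control libraries 1, 2, 3, 4 and 6 and 222, 86.3, 243, 177 and 161 in F2 control libraries 1 to 5. Of the F2 control libraries 4 were below every F1 control, while F2 control 3 was above F1 control 1. The log2 fold change of F2 control against F1 control was -1.10 ± 0.34 (2.15-fold lower, adjusted p 0.00905 by limma). With the erythrocyte marker mean as a covariate it was -0.52 with an adjusted p of 0.171. In that comparison 55.9% of all genes were called, so a call there is common. Between the mixture groups of the 2 generations the log2 fold change of otc was -0.37 ± 0.34 and did not pass (adjusted p 0.473 by limma).

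By the founders' treatment, otc had a mean of 375 ± 112 scaled FPKM in F1 control and 227 ± 79.8 in F1 mixture (SD, n = 5). The log2 fold change was -0.74 ± 0.34 with an unadjusted p of 0.0402 and an adjusted p of 0.377 by limma. In F2 the means were 178 ± 60.8 in control and 179 ± 72.0 in mixture, with a log2 fold change of -0.01 ± 0.34 and a 95% interval of -0.71 to 0.69. The width of that interval does not let the F2 groups be called alike in otc. The sign of the F2 value changed under 9 of 34 alternatives. The difference between the 2 effects was 0.73 ± 0.48 (limma, adjusted p 0.280).

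The cytosolic step catalysed by ass1 had the widest spread in absolute level. In F1 control its level ran from 666 to 2449 scaled FPKM (mean 1480.4 ± 769) and in F1 mixture from 188 to 2033 (748 ± 746). Library F1 mixture 4, at 2033, stood far above the other 4 of its group, which were between 188 and 728. For ass1 the F1 log2 fold change was -1.31 ± 0.52 with an unadjusted p of 0.0203 and an adjusted p of 0.354 by limma. The authors' deposited table gave ass1 a log2 fold change of -0.89 in F1 (q-value 0.705) and marked it in neither generation. In F2 the level ran from 525 to 1385 in control and from 536 to 1679.6 in mixture, with a log2 fold change of -0.24 ± 0.52 (adjusted p 0.761). For ass1 neither mixture comparison passed the test, and the F2 effect minus the F1 effect was 1.07 ± 0.74 (limma, adjusted p 0.310).

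Argininosuccinate lyase, asl, was the enzyme whose F1 and F2 mixture effects lay closest together, and its fall passed the test in F2. In F2 its level was 30.8, 72.4, 52.3, 49.0 and 62.5 scaled FPKM in control libraries 1 to 5 and 33.7, 13.05, 14.54, 11.6 and 27.8 in mixture libraries 1 to 5. Of the F2 mixture libraries 4 were below every control, and F2 mixture 1 was above only F2 control 1. The means were 53.4 ± 15.6 and 20.1 ± 9.98 (SD, n = 5), and asl fell by 1.43 ± 0.34 on the log2 scale (2.70-fold lower, 95% interval -2.14 to -0.73, adjusted p 0.00472 by limma). Without F2 mixture 2 the fold change was -1.32 with an adjusted p of 0.00917. The authors' deposited table gave 56.9 and 22.6 FPKM in F2 control and mixture with a q-value of 0.000955 and marked asl, as it did 20.3% of the genes tested there.

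In F1 the level of asl was 56.9, 117, 43.9, 58.5 and 64.4 scaled FPKM in control libraries 1, 2, 3, 4 and 6 and 45.5, 31.7, 29.3, 15.3 and 19.0 in mixture libraries 1, 4, 8, 9 and 13. Only F1 mixture 1 was above a control, F1 control 3. The log2 fold change was -1.26 ± 0.34 with an unadjusted p of 0.00134 and an adjusted p of 0.196 by limma, so it did not pass. The authors' deposited table gave 100 and 43.2 FPKM in F1 control and mixture with a q-value of 0.00863 and marked asl. The F2 effect minus the F1 effect was -0.17 ± 0.48, with a 95% interval of -1.17 to 0.83, so a difference of either sign could not be told from 0.

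The last enzyme, arg1, which releases urea, was the only one of the 6 called higher in F2 control than in F1 control. Its level was 31.3, 111, 169, 82.2 and 183 scaled FPKM in F1 control libraries 1, 2, 3, 4 and 6 and 776, 137, 231, 687 and 273 in F2 control libraries 1 to 5. Of the F2 control libraries 4 were above every F1 control, and libraries 1 and 4 were far above the rest. From F1 to F2 control it rose by 1.79 ± 0.61 on the log2 scale (3.47-fold higher, adjusted p 0.0180 by limma). The call was lost without F1 control 1 (adjusted p 0.0615), without F2 control 1 (0.0559), without F2 control 4 (0.0511) and with the hepatocyte marker mean as a covariate (log2 fold change 0.76, adjusted p 0.304). The value for cps1, 0.47 ± 0.28, did not pass, but was called with limma's array weights (0.59, adjusted p 0.0292) and with the erythrocyte marker mean as a covariate (0.81, adjusted p 0.0343).

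By the founders' treatment arg1 did not pass the test in either generation. In F1 the means were 115 ± 62.5 scaled FPKM in control and 159 ± 64.8 in mixture (SD, n = 5), with a log2 fold change of 0.58 ± 0.61 (limma, adjusted p 0.697). In F2 they were 421 ± 289 and 313 ± 218, with a log2 fold change of -0.53 ± 0.61 (adjusted p 0.558). The F2 mixture libraries ran from 52.4 (library 2) to 629 (library 1), the widest relative range of arg1 in any group. Without F2 mixture 2 the F2 log2 fold change was 0.01. The F2 effect minus the F1 effect was -1.10 ± 0.87 (limma, adjusted p 0.378). In the authors' deposited table arg1 was marked in neither generation (q-values 0.757 in F1 and 0.630 in F2).

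**Figure D2:**
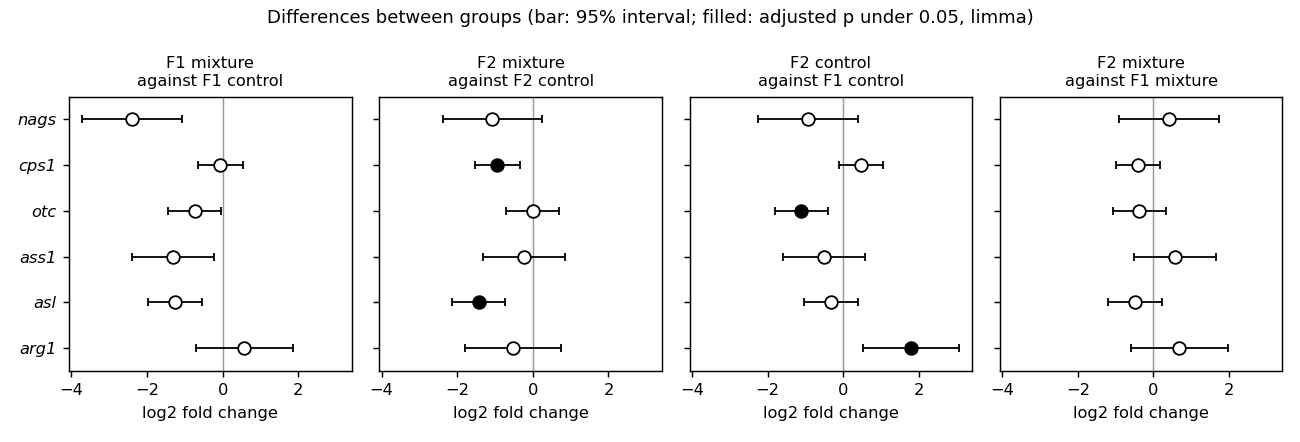
Log2 fold change (x axis) of each enzyme (y axis) in 4 comparisons between groups, with bars for the 95% interval and filled points for an adjusted p under 0.05 by limma over 10228 genes. In F1 all points are open, with nags at -2.40 and asl at -1.26. In F2, asl and cps1 are filled at -1.43 and -0.94.

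Between the generations, F2 control against F1 control gave 2 calls among the 6, arg1 higher and otc lower, beside 27.4% of all genes higher and 28.5% lower. The other 4 had log2 fold changes between -0.92 (nags) and 0.47 (cps1) and did not pass. In F2 mixture against F1 mixture limma called 0 of 6, beside 14.2% of all genes, and 0 of the 6 had an unadjusted p under 0.05, beside 31.4% of all genes. The largest of these values was 0.69 ± 0.61, for arg1. The generation comparisons use the same libraries as the mixture comparisons, so their values are not independent of those above. The F1 and F2 libraries of 1 treatment may also differ in age or handling, which was not tested.

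Ratios of 2 enzymes within a library do not depend on how libraries are scaled, and are given as a description. How many ratios among all gene pairs stand apart between groups was not computed, so a gap is not read as particular to these enzymes. The ratio of nags to cps1, the activator's enzyme to the enzyme it activates, ran from 0.501 to 1.64 in F1 control and from 0.0270 to 0.411 in F1 mixture, with no overlap. In F2 it ran from 0.185 to 0.477 in control and from 0.125 to 0.594 in mixture. The ratio of otc to cps1 ran from 1.18 to 1.99 in F1 control and from 0.227 to 0.921 in F2 control, again with no overlap. Between these control groups limma called 55.9% of all genes. The mixture groups, at 0.660 to 1.498 in F1 and 0.615 to 1.22 in F2, overlapped both control groups. The ratio of asl to ass1, which act in sequence, ran from 0.0201 to 0.0275 in F2 mixture and from 0.0268 to 0.138 in F2 control. Library F2 mixture 5, at the top of its group, overlapped only the lowest control. The ratio of arg1 to asl ran from 0.550 to 3.84 in F1 control and from 1.56 to 9.36 in F1 mixture. In F2 it ran from 1.90 to 25.2 in control and from 4.02 to 22.3 in mixture.

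The summed level of the 6 enzymes ran from 1617 to 3717 scaled FPKM in F1 control, 649 to 2820 in F1 mixture, 1307 to 2804 in F2 control and 815 to 2952 in F2 mixture. The ranges overlapped in both generations. On average ass1 made up 56.8%, 43.7%, 46.7% and 53.7% of that sum in these 4 groups in the same order.

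Within groups several libraries had all 6 enzymes high or all 6 low. After subtraction of the group means of log2(scaled FPKM + 1), all 6 were below their group mean in F1 control 1, F1 mixture 9 and F2 mixture 2 (mean deviations -0.72, -1.03 and -1.10). All 6 were above it in F1 control 2, F1 mixture 8 and F2 mixture 1 (0.54, 0.32 and 0.90). The 15 pairwise Pearson correlations of these deviations over 20 libraries were all positive, from 0.06 (asl and arg1) to 0.64 (nags and ass1). Within the single groups of 5, 8 of the 15 were negative in F2 control, down to -0.85 for asl and arg1, beside 1 in F1 control, 2 in F1 mixture and 0 in F2 mixture. By a permutation test with 100000 resamples the pair of nags and ass1 had a p of 0.00244 for Pearson's r and of 0.00618 for Spearman's rho of 0.60, or 0.0366 and 0.0596 adjusted over the 15 pairs. Without F1 mixture 9 and F2 mixture 2, the libraries farthest from the median of nags, the r of nags and ass1 was 0.51. The shuffling ran freely over the 20 libraries. It allowed neither for the subtracted group means nor for likeness between F2 libraries of the same number. These permutation p-values and those below may therefore be too small, and the call of nags and ass1 is not secure.

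No other pair passed by Pearson's r after adjustment, and 0 of 15 passed by Spearman's rho. The next pair, cps1 and asl, had a Pearson r of 0.56 and a Spearman rho of 0.52 (permutation p 0.00914 and 0.0197, adjusted 0.0543 and 0.0741), and r was 0.58 without F1 control 1 and F2 mixture 2. The pair of cps1 and arg1, by contrast, went from 0.45 to 0.03 without the same 2 libraries. Libraries share their depth and scaling factor across all genes, which also enters these correlations.

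**Figure D3:**
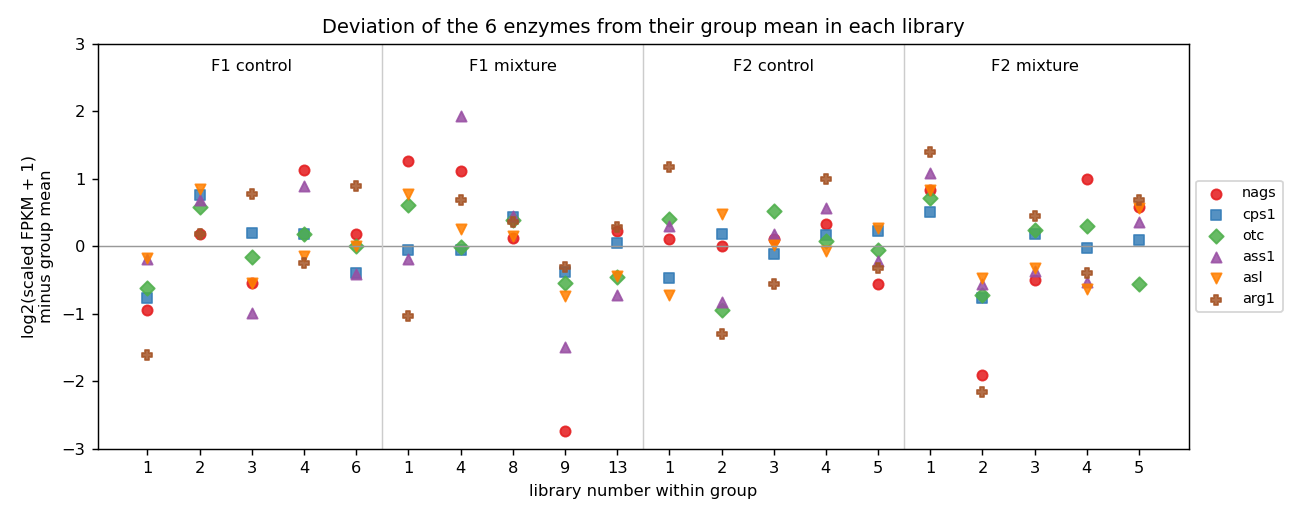
Deviation of each enzyme from its group mean on the log2(scaled FPKM + 1) scale (y axis) in each of the 20 libraries (x axis, by group and library number). The 6 symbols of F1 mixture 9 and F2 mixture 2 all lie below 0, and those of F1 mixture 8 and F2 mixture 1 all lie above it.

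For each enzyme the 3 genes with the most similar pattern over the 20 libraries were found by Pearson's r of log2(scaled FPKM + 1) among 10193 genes, as a description. For nags these were gpr1, mob2.2 and esyt1 (r 0.75 each), and for cps1 they were ptk2b (0.86), plce1 (0.83) and fnbp1l (0.82). For otc they were afmid (0.85), scap (0.85) and mettl6 (0.84), and for ass1 they were mob2.2 (0.76), nags (0.74) and itgb5 (0.74). For asl they were sema4d (0.88), pth2r (0.85) and LOC100485044 (0.85), and for arg1 they were pah (0.88), tfpi2 (0.88) and znf750 (0.88). The enzyme nags is the only one of the 6 that appears among another's 3 nearest genes.

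Genes that supply, carry or use the cycle's metabolites were listed in 5 groups. Of 85 such genes in the tables, numbered copies included, 63 passed the filter on level. In F1 limma called 0 of 63. At an unadjusted p under 0.05 there were 9 of 63 (2 higher and 7 lower), beside 12.8% of all genes in either direction and 7.23% lower. In F2, 3 rose and 12 fell, or 4.76% and 19.0% of the 63, beside 11.3% and 14.5% of all genes. The F2 control libraries also differed from F1 control, with 26 of the 63 called higher and 11 lower (41.3% and 17.5%). Of all genes, 27.4% were higher and 28.5% lower there. Between the mixture groups of the 2 generations 10 were called higher and 4 lower (15.9% and 6.35%). Of all 10228 genes 14.2% were called there in either direction, 620 of them higher. A rise or fall in F2 thus compares F2 mixture with F2 control and does not say which group moved. The 15 genes called in F2 mixture against F2 control are described by list below, with adjusted p-values by limma over all genes.

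Among 14 genes that supply ammonia and amino groups, 3 fell and 1 rose in F2, and the list's median log2 fold change was -0.07. The aspartate aminotransferases make the aspartate that carries the second nitrogen into urea. Mitochondrial got2 went from 114 ± 16.1 scaled FPKM in F2 control to 57.1 ± 12.7 in F2 mixture (SD, n = 5, log2 fold change -1.002 ± 0.20, adjusted p 0.00164). Cytosolic got1 went from 43.0 ± 11.9 to 20.6 ± 5.29 (-1.03 ± 0.28, adjusted p 0.0124). Liver glutaminase gls2, which releases ammonia from glutamine, went from 23.0 ± 12.0 to 8.73 ± 2.97 (-1.23 ± 0.33, adjusted p 0.0109). In F1 control and F1 mixture the means of got2 were 64.5 and 60.9 scaled FPKM. Those of got1 were 28.8 and 35.5, and those of gls2 were 22.6 and 18.9.

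The gene that rose, hal.2, is a copy of histidine ammonia-lyase, which frees ammonia from histidine. It went from 172 ± 70.1 to 444 ± 288 scaled FPKM (1.17 ± 0.42, adjusted p 0.0477), and reads could be split between it and the copy hal.1, which was under the filter. In F1 the log2 fold change of hal.2 was -1.15 ± 0.42 (adjusted p 0.323). Glutamate dehydrogenase glud1, the other main source of free ammonia, had log2 fold changes of -0.17 ± 0.35 in F1 and -0.43 ± 0.35 in F2 and passed in neither (adjusted p 0.859 and 0.376).

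Among 13 transport genes 4 fell in F2 and 0 rose, with a list median of -0.40. The mitochondrial glutamate carrier slc25a22 went from 3.23 ± 1.26 to 0.985 ± 0.400 scaled FPKM (-1.07 ± 0.24, adjusted p 0.00346). The aquaglyceroporin aqp9, which passes glycerol and urea, went from 63.7 ± 13.9 to 35.2 ± 13.3 (-0.89 ± 0.25, adjusted p 0.0147). The pair slc7a7 and slc3a2 form an exporter of cationic amino acids such as arginine and ornithine, and both fell (-1.002 ± 0.31 and -1.09 ± 0.32, adjusted p 0.0237 and 0.0174). The mitochondrial ornithine carrier slc25a15.2 had -0.54 ± 0.30 in both F1 and F2, and the citrin gene slc25a13, a mitochondrial aspartate and glutamate carrier, had -0.56 ± 0.35 in F1 and 0.38 ± 0.35 in F2. Neither carrier passed in either generation.

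Among 15 other genes of arginine, ornithine and proline metabolism 2 fell and 1 rose in F2, with a list median of -0.15. The proline-forming pycr1 fell (-0.71 ± 0.15, adjusted p 0.00244), as did spermine synthase sms (-1.07 ± 0.28, adjusted p 0.00918), whose level was low (2.79 ± 1.51 and 0.842 ± 0.991 scaled FPKM). The gene for the first step from glutamate to proline and ornithine, aldh18a1, rose from 2.39 ± 0.309 to 3.81 ± 0.646 scaled FPKM (0.50 ± 0.15, adjusted p 0.0205). Ornithine aminotransferase oat had log2 fold changes of 0.66 ± 0.51 in F1 and -0.61 ± 0.51 in F2 and passed in neither. The mitochondrial arginase arg2 had means of 0.112 to 0.178 scaled FPKM and was under the filter, beside 115 to 421 for arg1 on the same per-length scale.

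Among 9 genes that link the cycle to fumarate, aspartate and bicarbonate 1 rose and 1 fell in F2, with a list median of -0.42. Adenylosuccinate lyase adsl, which like asl releases fumarate, rose from 16.3 ± 1.85 to 30.6 ± 3.09 scaled FPKM (0.87 ± 0.18, adjusted p 0.00191). Carbonic anhydrase ca2, which is also abundant in erythrocytes, fell (-1.85 ± 0.57, adjusted p 0.0228). In F1 the log2 fold change of adsl was -0.29 ± 0.18 and that of ca2 was 0.82 ± 0.57, and neither passed.

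Among 12 regulators, known from mammals or from amphibian metamorphosis, 2 fell in F2 and 0 rose, with a list median of -0.02. The transcription factor klf15, which in mammals acts in hepatic amino acid breakdown, had means of 6.99 ± 3.49 scaled FPKM in F2 control and 1.87 ± 2.88 in F2 mixture (-1.79 ± 0.36, adjusted p 0.00175). In F1 it was at 0.286 ± 0.226 in control and 0.290 ± 0.164 in mixture. The hepatocyte factor hnf4a fell from 7.81 ± 1.74 to 4.36 ± 1.45 (-0.74 ± 0.20, adjusted p 0.0101). In F1 hnf4a had a log2 fold change of 0.18 ± 0.20 and did not pass.

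**Figure D4:**
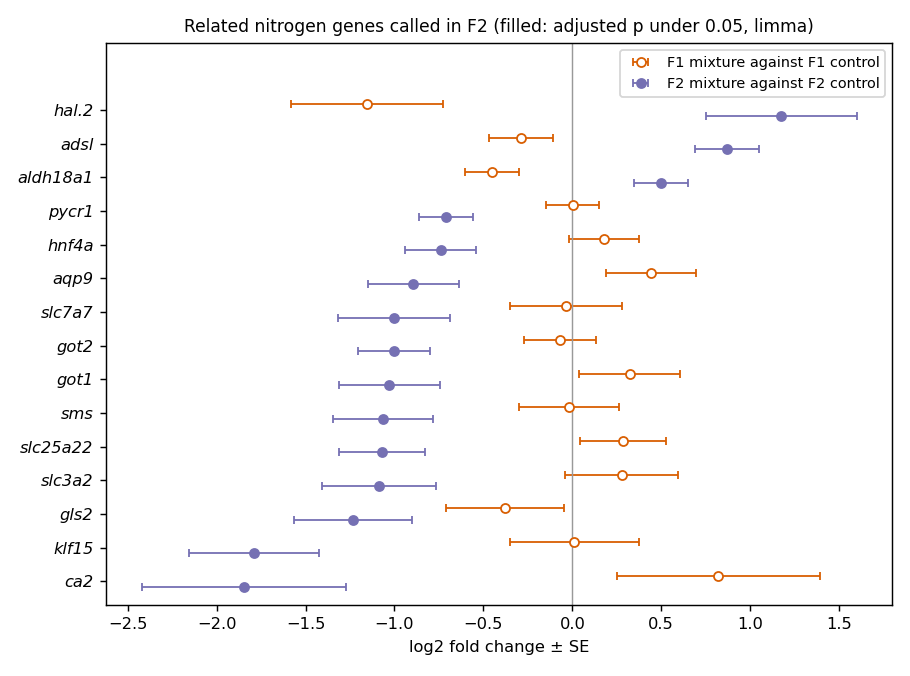
Log2 fold change ± SE (x axis) of the 15 related genes that passed the test in F2 (y axis, sorted by their F2 value), in F1 (orange) and F2 (purple). Filled points have an adjusted p under 0.05 by limma. All 15 F1 points are open, and in F2, 3 lie above 0 and 12 below it. The genes were chosen by their F2 value.

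In F1 the smallest p-values in the related lists belonged to slc25a12, the other mitochondrial aspartate and glutamate carrier (-0.57 ± 0.16, adjusted p 0.199), and to sat1, which starts the breakdown of polyamines (-1.38 ± 0.43, adjusted p 0.263). Other values were -1.71 ± 0.64 for azin1, which raises ornithine decarboxylase activity, -1.40 ± 0.54 for the glutamine transporter slc38a3, 0.98 ± 0.36 for mitochondrial malate dehydrogenase mdh2 and 0.57 ± 0.23 for fumarase fh. The amino acid genes aldh18a1 and aspg, an asparaginase, had -0.45 ± 0.15 and -0.54 ± 0.23. The mitochondrial carbonic anhydrase ca5b had -0.97 ± 0.48, and the listed gene ca5a was not found by name. The remaining genes selected in F1 had values from -0.23 ± 0.23 for sirt5, a deacylase known in mammals to act on cps1, to 0.46 ± 0.28 for prmt1, an arginine methyltransferase. Between them lay sirt3.2 (-0.19 ± 0.15), sirt3.1 (-0.16 ± 0.16), amt (0.26 ± 0.22), creb1 (0.31 ± 0.17), sdsl (0.32 ± 0.27), aqp9 (0.44 ± 0.25) and mdh1 (0.45 ± 0.27). None of these F1 values passed by limma. In F1 the authors' deposited table marked 2.43% of the genes tested there, and 5 of the 38 related genes named here with a fold change. These were azin1, slc38a3, mdh2, ca5b and ca2, with q-values of 0.0476, 0.00495, 0.0139, 0.00495 and 0.0372.

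In F2 the selected genes that did not pass were azin2, a relative of azin1 (-1.18 ± 0.53, adjusted p 0.107 by limma), cad, which makes carbamoyl phosphate for pyrimidines (0.52 ± 0.22, adjusted p 0.0882), and pyruvate carboxylase pc.2 (-0.51 ± 0.23, adjusted p 0.103). The regulators creb1, known in mammals from the fasting response, and sirt3.2, a mitochondrial deacetylase, had -0.35 ± 0.17 and 0.24 ± 0.15 (adjusted p 0.131 and 0.261). In F2, 15 of the 38 were marked in the authors' deposited table, of which 11 were among the 15 called by limma. That table marked 20.3% of all genes tested in F2. Most of the 38 were selected by small p-values in these same libraries, which favours both the marks and the overlap. The authors' deposited table also marked azin2, cad, oat and slc38a3 (q-values 0.00168, 0.0280, 0.0204 and 0.0234), and it did not mark aqp9, ca2, hnf4a and pycr1 (0.0874, 0.0881, 0.114 and 0.0938).

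Marker genes of hepatocytes and of other cell types were compared between the groups by the same test. In F1 limma called 0 of 16 hepatocyte and 0 of 16 erythrocyte markers between mixture and control, where it called 0% of all 10228 genes. The absence of calls thus does not show that these markers were unchanged. Their median log2 fold changes in F1 were 0.53 and 0.50, beside -0.02 for all genes, and 2 of the 16 in each list were negative. In F2 3 of the 16 hepatocyte markers (fgb, tf and fga) and 2 of the 16 erythrocyte markers (rhag and fech) fell. Of all genes 14.5% were called lower there. The median log2 fold changes of the 2 lists in F2 were -0.61 and -0.21, beside -0.04 for all genes. Negative values were found for 10 of the 16 hepatocyte and 12 of the 16 erythrocyte markers. From F1 to F2 control 6 of the 16 hepatocyte markers rose and 1 fell, and 7 of the 16 erythrocyte markers rose. The list medians there were 0.76 and 1.19, beside -0.03 for all genes. In that comparison 27.4% of all genes were called higher and 28.5% lower. The summed level of 17 erythrocyte markers ran from 6879 to 26789 scaled FPKM in F1 control, 5818 to 79260 in F1 mixture, 24481 to 69071 in F2 control and 5965 to 62898 in F2 mixture. The summed level of the 16 hepatocyte markers ran from 9810 to 18879, 15205 to 35712, 19236 to 30084 and 8410 to 30838 in the same order. The highest gene by median was hbg1 in the erythrocyte sum (19824, range 3153 to 64810) and apoc1 in the hepatocyte sum (8545, range 3025 to 17507). Left out of the sums were hba1 and alb, whose values were sound in only 17 and 12 libraries. With the erythrocyte marker mean as a covariate, the log2 fold change of nags in F1 was -2.05, that of asl in F2 was -1.58 and that of cps1 in F2 was -1.07. With the hepatocyte marker mean they were -2.42, -1.43 and -0.80. The F2 calls of asl and cps1 held with either covariate (adjusted p 0.00168 to 0.0313 by limma).

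The 2 pancreas markers that passed the filter, amy2a and cel, rose in F2 mixture (log2 fold changes 2.12 ± 0.65 and 0.89 ± 0.24, adjusted p 0.0210 and 0.0103 by limma). Both were lower in F2 control than in F1 control (-3.10 ± 0.65 and -1.26 ± 0.24). The summed level of the 14 pancreas genes ran from 132 to 419 scaled FPKM in F1 control, 109 to 1835 in F1 mixture, 16.3 to 40.3 in F2 control and 42.0 to 307 in F2 mixture. That sum is mostly the level of 1 gene, amy2a, which reached 1833, while cel, the next highest, reached 5.53. From F1 to F2 control 3 of 4 lymphocyte markers fell, and of 8 endothelial and stellate markers 3 fell and 1 rose. Of all genes 27.4% rose and 28.5% fell there. In F2 mixture against control 1 of the 4 lymphocyte markers rose, and of the 8 endothelial and stellate markers 2 rose and 1 fell. Of 5 macrophage and pigment cell markers 2 fell in that comparison, and of 5 bile duct markers 1 fell. Beside these, 11.3% of all genes were called higher in F2 mixture than in F2 control and 14.5% lower. The part of these markers in the enzymes' values was not tested.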

How the data were processed

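Liver RNA was sequenced with the TruSeq Stranded mRNA kit and 75 bp reads, per the labels' protocols. For every library the authors deposited FPKM per gene with lower and upper limits. The submitters' processing notes name Trimmomatic 0.32.1, HISAT2, Cufflinks 0.0.7 and, for the comparisons, Cuffdiff 0.0.7. The Cuffdiff tables, used only where the text names the authors' deposited table, give the log2 of the fold change, the test's score, its p-value and its q-value, per the file headers. No genome build is given in the sources used here, but 20163 of 20372 named genes (99.0%) had the coordinates of UCB_Xtro_10.0. The 70 lines without a gene name held at most 0.00856% of the FPKM and were left out. Values not marked as sound (50 HIDATA, 106 FAIL) were set to missing. The file names of F1 mixture 9 and 13 carry each other's number, and the sample recorded for each file was used.

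FPKM was divided by a factor per library (0.717 to 1.26), the median ratio to the geometric mean over 6971 genes. Differences were tested on log2(scaled FPKM + 1) with limma 3.58.1 in R 4.3.3, two-sided, with 1 model of 4 group means, a trend of the variance and Benjamini-Hochberg adjustment over the 10228 genes whose mean FPKM was at least 1, with at least 3 sound values per group. Fold changes are on that scale, which understates those of low genes. Fragments per library were derived from the FPKM limits taken as 2 Poisson SD on each side, which undercounts where the limits hold more than counting error. The fit was tested on simulated data. The highest correlation between 2 libraries was 0.967, so none was counted as a repeat.

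The members and the lists were chosen with earlier results of these data known. Named were all 6 enzymes, from each related list up to 4 genes with the smallest p per mixture comparison, and arg2, oat, slc25a15, slc25a13, glud1 and gls2 (for slc25a15 the copy slc25a15.2). The labels do not say that the library numbers in the titles pair animals, so the main model was unpaired and a replicate block was an alternative. In F2 the deviations of control and mixture libraries from their group means correlated at 0.385, 0.369, 0.154, 0.104 and 0.169 for numbers 1 to 5. Each control library's correlation was highest with the mixture library of its own number. The F1 groups share only numbers 1 and 4 (-0.02 and -0.19) and were not taken as paired. Alternatives changed the scaling, pseudocount, filter, weights, libraries, length trend, block and marker covariates.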

Additional observations from a re-analysis of the deposited data

Results flagged for a closer look

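Of 24 sets of 5 libraries (6 enzymes in 4 groups), 1 had a library far from the others. The level of asl in F1 control 2 was 117 scaled FPKM, and its gap to the next library was 0.722 of the group's range, above Dixon's critical value of 0.71. Chance flags about 1 in 20 such sets. All 6 enzymes were above their group mean in that library.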

How the results depend on the processing

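The F2 calls of asl and cps1 held under all 34 alternatives, with adjusted p-values by limma of 0.00113 to 0.0183 and 0.00608 to 0.0485. Those that leave out an F1 library cannot change the F2 fold changes, only the shared estimate of the spread. In F1, 0 of 6 enzymes were called in the main test and 2 with limma arrayWeights (asl 0.0180, nags 0.0197). A set of 15 libraries with a weight of 0.6 or more, chosen after the data were seen, gave 3 in F1 (asl 0.00619, nags 0.00948, otc 0.0418). For the difference between effects it gave 1 (otc, 1.38), as did the erythrocyte covariate (cps1). Over all 10228 genes the difference had 4229 calls with those 15 libraries and 1389 with that covariate. For F2 control against F1 control the count was 2 in the main test, 1 with the hepatocyte covariate, 1 to 2 with a library left out and 3 under each of 3 alternatives. These added ass1 with quantile normalization (adjusted p 0.0229), cps1 with arrayWeights (0.0292) and nags with only the 2 groups in the fit (0.0428), while the erythrocyte covariate called cps1 (0.0343) and not otc. Over all genes, this comparison of the control groups had 5722 calls in the main test and 5222 to 5942 with a library left out. It had 5833 with quantile normalization, 6592 with arrayWeights and 5982 with only the 2 groups in the fit. With the hepatocyte covariate it had 4927, and with the erythrocyte covariate 4239. Over all genes, F1 calls numbered 0 in the main test, 1129 with arrayWeights and 2459 with those 15 libraries. With the library number as a replicate block, F1 had 0 calls among the 6 and 29 over all genes, and F2 had 2 and 2582. For the difference there were 257 calls over all genes with the block and 2052 without it. With the block the F1 effect rests only on the libraries of the 2 shared numbers. The counts for F1 and for the difference are therefore not like for like. The block changed no call of the 6 enzymes. In F1, where only 2 numbers are shared, it moved the log2 fold change of nags from -2.40 to -1.31, of asl from -1.26 to -0.59, of ass1 from -1.31 to -0.79, of otc from -0.74 to -0.22 and of arg1 from 0.58 to 1.34. For the difference it moved nags from 1.33 to 0.24 and asl from -0.17 to -0.84. No paired value exists for the generation comparisons, which lie between blocks.

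Signs turned only for values that had not passed the test. For cps1 in F1 the log2 fold change became 0.042 with the length trend removed, 0.17 with the replicate block, 0.21 with both and 0.10 with the erythrocyte covariate. For otc in F2 it became 0.042 with quantile normalization, 0.094 with arrayWeights, 0.10 with the hepatocyte covariate and 0.27 with the 15 libraries, and for arg1 in F2 it became 0.0047 with arrayWeights and 0.31 with the 15 libraries. With the hepatocyte covariate arg1 had -0.17 in F1 and 0.10 for the difference. The erythrocyte covariate gave asl 0.092 in F2 control against F1 control. The 15 libraries gave asl 0.21 for the difference and otc 0.14 in F2 mixture against F1 mixture. With 1 library left out, the ranges that cross 0 were -0.25 to 0.13 for cps1 in F1, -0.25 to 0.17 for otc in F2, -0.88 to 0.011 for arg1 in F2, -0.39 to 0.021 for asl in the difference and -0.27 to 0.89 for nags in F2 mixture against F1 mixture. FPKM without scaling moved the median of all genes by -0.19 and -0.17 in the 2 generation comparisons, and a filter at a mean FPKM of 5 moved it by 0.10 in F2. The cause of these changes was not tested. The half-width of the deposited FPKM interval was under 15% of a value for all 6 enzymes, so the spread between 5 libraries limits the comparisons.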
